A study of Mus musculus with 8 samples.

Results

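The 10 genes described here belong to bone morphogenetic protein (BMP) and activin signalling and were taken by name from a table of 53801 genes, in which each has 1 row. They are the ligand genes Bmp2, Bmp4 and Inhba, the receptor genes Bmpr1a and Bmpr2, the genes of the secreted antagonists Grem1 and Chrdl1, and the target genes Id1, Id2 and Id3. RNA-seq had been made from stromal cells sorted out of MO5 tumours, which are subcutaneous melanomas grown from B16 mouse melanoma cells that carry ovalbumin. Tumours were taken on day 8 from mice of C57Bl/6 background that were 8 to 12 weeks old at inoculation. All 8 libraries came from ADAM12-GFP mice, whose bacterial artificial chromosome transgene expresses Cre and GFP from Adam12 regulatory sequence, and the sorted cells carried PDPN and PDGFRα but neither CD45 nor CD31. GFP+ cells (ADAM12+, 4 libraries) were compared with GFP- cells (ADAM12–, 4 libraries) of the same gate, to ask what sets the ADAM12+ cells apart. GFP therefore reports transgene activity, and the GFP- libraries also held Adam12 transcripts, with normalised read counts of 919.7 to 1693 in GFP- and 1833 to 2938 in GFP+ libraries. Adam12 itself rose by a log2 difference of 0.75 (SE 0.24) with an adjusted p of 0.0266 in DESeq2, although this call was lost in 4 of the 8 fits that left out 1 library (without replicate 3 or 4 of the GFP- group, or replicate 2 or 4 of the GFP+ group), with values of up to 0.117. The call was also lost in edgeR after a filter on low counts (adjusted p 0.0643). It was kept in edgeR without that filter (adjusted p 0.00255) and in limma voom (adjusted p 0.015). The labels number the libraries 1 to 4 in each group but do not tie a number to a tumour, and the labels do not name an animal for a library, so p-values measure the spread between libraries.

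As background, BMPs and activins are secreted dimers of the TGF-β superfamily that bring together type I and type II serine-threonine kinase receptors. BMP receptors phosphorylate SMAD1, SMAD5 and SMAD9, which enter the nucleus with SMAD4 and switch on genes such as those of the ID proteins, whereas activins act through SMAD2 and SMAD3. Gremlin 1, chordin-like proteins, noggin and follistatin bind ligands outside the cell and keep them from the receptors, and in connective tissue such antagonists set where fibroblasts and progenitors respond. ID proteins lack a DNA-binding region and hold E proteins, their helix-loop-helix partners, away from DNA.

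Total counts ran from 883144 (replicate 3) to 17535099 reads in GFP- and from 8776925 to 31666734 in GFP+ libraries. Normalised counts are read counts over DESeq2 size factors, log2 differences are log2 fold changes of GFP+ over GFP- cells as fitted by DESeq2, and 1 read of GFP- replicate 3 was worth 10.99 normalised counts. Replicate 1 of both groups held fewer genes, 16138 genes with a read in GFP- and 16313 in GFP+, against 20219 to 24138 in the other libraries except GFP- replicate 3 (15414). The 10 markers of mesenchymal stroma were all present and summed to 287303 to 618091 in GFP- and 722244 to 838590 in GFP+ libraries. The 17 melanocyte markers were present as well, with summed normalised counts of 30248 to 88473 in GFP- and 6384 to 15390.3 in GFP+ libraries, so that melanocyte transcripts were higher in every GFP- library than in any GFP+ library. Markers excluded by the gate were low but present, since endothelial markers (15 of 15 genes detected) summed to 1868 to 3109 in GFP- and 2138 to 3819 in GFP+ libraries and leukocyte markers (15 of 15) to 3535 to 12690.3 in GFP- and 2665 to 9872 in GFP+ libraries. The 9 Schwann cell markers summed to 1560.2 to 3314 in GFP- and 714 to 1479 in GFP+ libraries. Of these, Sox10 and S100b are also among the melanocyte markers and Egr2 is among the early response genes below. The 8 keratinocyte markers summed to 33.0 to 387 in GFP- and 36.0 to 85.3 in GFP+ libraries, and the 10 pericyte markers, of which Higd1b was at 0, to 689 to 1219.6 in GFP- and 794 to 1475 in GFP+ libraries. A list of 22 early response genes, which respond to growth factors and to tissue dissociation, summed to 116989 to 133639 in GFP- and 170409 to 223978 in GFP+ libraries. The part of these shifts in the results below was not tested.

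Among the 10 genes, Chrdl1 and the type I receptor gene Bmpr1a were higher in ADAM12+ cells, with fold differences of 2.05 and 1.63. The ligand genes and Grem1 had lower means in ADAM12+ cells and the other receptor and ID genes had higher means, and none of these 8 passed the test. A gene was called when its DESeq2 adjusted p, computed over all 15283 genes tested, was under 0.05. Thus 2 of the 10 genes were called higher, against 4.66% of all genes tested, and 0 were called lower, against 4.76%. With an unadjusted p under 0.05, 4 of the 10 were higher (against 10.2% of all genes tested) and 1 was lower (against 10.8%), and edgeR and limma voom also called 0 lower. The groups did not overlap for 3 genes that were higher in GFP+ cells (Chrdl1, Bmpr1a and Id3, against 6.37% of all genes tested) and for 1 that was lower (Grem1, against 5.95%). The median log2 difference was 0.35 over the 10 genes and -0.0082 over all genes tested.

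**Figure D1:**
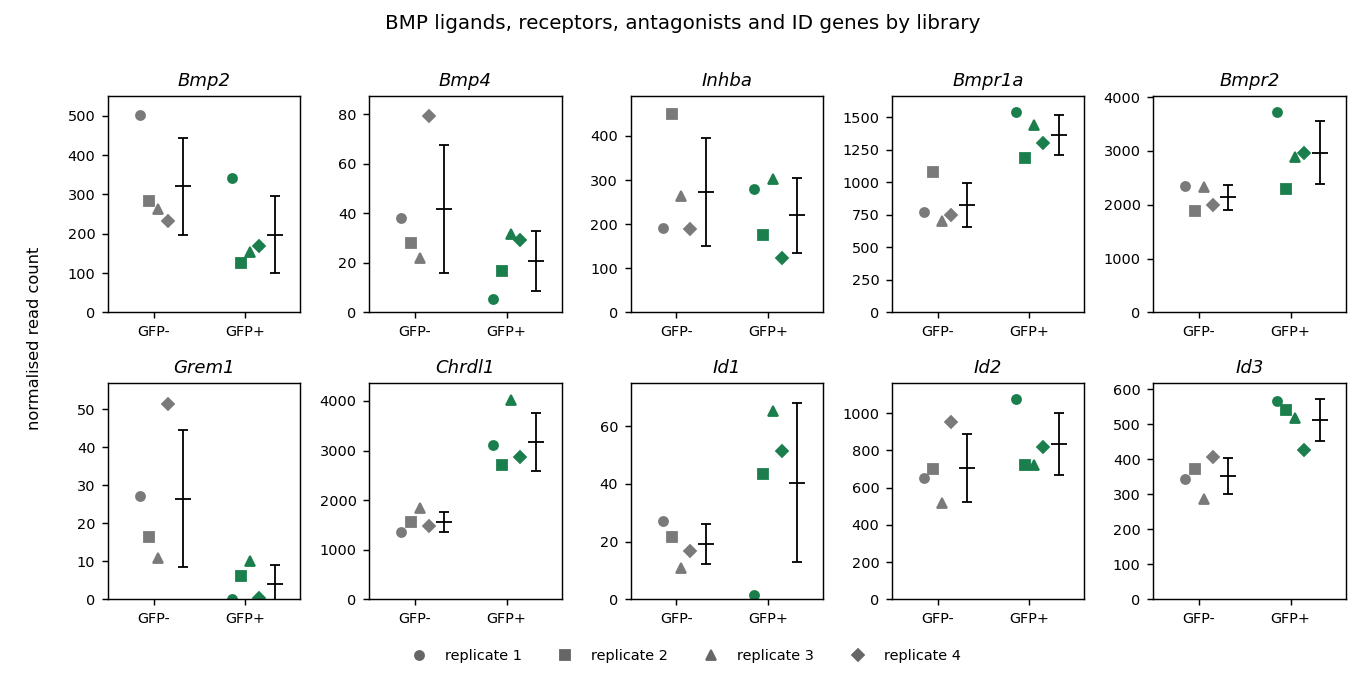
Normalised read count (linear axis from 0) of the 10 genes in every GFP- (grey) and GFP+ (green) library, with the marker shape giving the replicate number and the black bar the mean with its SD (n = 4). Chrdl1, Bmpr1a and Id3 lie higher in all 4 GFP+ libraries than in any GFP- library, Grem1 lies lower in all 4, and GFP+ replicate 1 has an Id1 value of 1.39 below a group otherwise at 43.5 to 65.3.

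The ligand genes were examined first. Bmp2 (ENSMUSG00000027358, plus strand of chromosome 2, 133552159 to 133562885, GRCm38) encodes a BMP best known for inducing bone and cartilage. Its normalised counts were 503, 285, 264 and 234 in GFP- replicates 1 to 4 and 342, 127, 154 and 168 in GFP+ replicates 1 to 4. Replicate 1 was the highest library in each group, and the ranges overlapped because GFP+ replicate 1 exceeded 3 of the GFP- libraries. The log2 difference of Bmp2 was -0.72 (SE 0.39) with an adjusted p of 0.276 in DESeq2, and without GFP+ replicate 1 it was -1.10 with an adjusted p in DESeq2 of 0.016, so the call turned on that library. Without GFP- replicate 1 the value was -0.41 (adjusted p 0.638). In bulk samples such as these, fewer cells that express a gene and less RNA per cell cannot be told apart.

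Bmp4 (ENSMUSG00000021835, minus strand of chromosome 14, 46383520 to 46390669), the close relative of Bmp2, was covered by fewer reads, 28, 39, 2 and 151 reads in GFP- and 4, 40, 41 and 87 in GFP+ replicates 1 to 4. These gave normalised counts of 38.0, 27.9, 22.0 and 79.3 in GFP- and 5.55, 16.7, 31.5 and 29.2 in GFP+ replicates. GFP- replicate 4 and GFP+ replicate 1 lay farthest apart and the rest overlapped. For Bmp4 the log2 difference was -1.06 (SE 0.69), with a 95% interval of -2.42 to 0.30 and an adjusted p of 0.403 in DESeq2. The value was -1.22 without the shallow GFP- replicate 3 (adjusted p 0.285) and -0.53 without GFP- replicate 4 (adjusted p 0.833). The 2 reads of GFP- replicate 3 allow a normalised count of 2.66 to 79.4 (exact Poisson 95% interval, counting error only).

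Inhba (ENSMUSG00000041324, plus strand of chromosome 13, 16011851 to 16031621) encodes the βA subunit, of which activin A is made. It had normalised counts of 191, 450.0, 264 and 189 in GFP- and 279, 176, 303 and 123 in GFP+ replicates 1 to 4. The groups overlapped over most of their range, and only GFP- replicate 2 stood above every library of the other group. Inhba had a log2 difference of -0.32 (SE 0.40) with a 95% interval of -1.10 to 0.46 and an adjusted p of 0.724 in DESeq2, and it was 0.064 without GFP- replicate 2. The annotated intervals of Bmp4 and Inhba each overlap non-coding genes on the opposite strand, which the strand-specific counting keeps apart.

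Of the secreted antagonists, Chrdl1 was called higher and Grem1 was not called. Chrdl1 (ENSMUSG00000031283, minus strand of chromosome X, 143285674 to 143394262) encodes chordin-like 1, which binds BMP4 and related ligands outside the cell. Its normalised counts were 1365, 1564, 1835 and 1489.6 in GFP- and 3120.3, 2712, 4015 and 2866 in GFP+ replicates 1 to 4. Every GFP+ library lay above every GFP- library, with GFP+ replicate 3 the highest. Chrdl1 rose from 1563 ± 199 to 3178 ± 582 normalised counts (mean ± SD over 4 libraries), a log2 difference of 1.03 (SE 0.18) with an adjusted p of 1.16e-06 in DESeq2 and 3.92e-06 in edgeR (0.00312 after edgeR's filter on low counts). Of the 712 genes called higher, 357 had a larger log2 difference than Chrdl1. The 10 stromal markers had a median log2 difference of 0.75, which lies below the 1.03 of Chrdl1 and within its 95% interval of 0.68 to 1.39.

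Grem1 (ENSMUSG00000074934, minus strand of chromosome 2, 113746164 to 113758646) encodes gremlin 1, an antagonist of BMP2, BMP4 and BMP7 found in subsets of fibroblasts. It was counted in few reads, 20, 23, 1 and 98 in GFP- and 0, 15, 13 and 1 in GFP+ replicates 1 to 4. The normalised counts were 27.1, 16.5, 10.99 and 51.5 in GFP- and 0, 6.28, 9.99 and 0.335 in GFP+ replicates. All GFP+ libraries lay below all GFP- libraries, but the lowest GFP- value rests on 1 read, which allows 0.278 to 61.2 (exact Poisson 95% interval), and lies close to the highest GFP+ value. The 0 reads of GFP+ replicate 1 allow a normalised count of up to 5.12 (exact Poisson 95% interval, counting error only). Its log2 difference was -2.71 (SE 1.14) with an adjusted p of 0.12 in DESeq2, from 0.0704 to 0.483 when single libraries were left out, and it was not called. The log2 difference itself ranged from -3.54 without GFP+ replicate 3 to -2.16 without GFP- replicate 4.

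Bmpr1a and Bmpr2 encode the type I and type II receptors to which BMP2 and BMP4 bind. Their promoters, together with those of Grem1 and Id2, are shown because these are the 4 of 7 genes with a promoter window in the RefSeq table (Bmp2, Chrdl1 and Id1 had none) that hold GGCGCC, a palindrome known as a GC-rich binding motif of SMAD1 and SMAD5. A window spans 250 bases before to 50 bases after the annotated RefSeq start on GRCm38.p6, and the motif is in capitals. As a palindrome it reads the same on both strands, and no other motif was searched.
Bmpr1a, chr14:34502497-34502796, minus strand: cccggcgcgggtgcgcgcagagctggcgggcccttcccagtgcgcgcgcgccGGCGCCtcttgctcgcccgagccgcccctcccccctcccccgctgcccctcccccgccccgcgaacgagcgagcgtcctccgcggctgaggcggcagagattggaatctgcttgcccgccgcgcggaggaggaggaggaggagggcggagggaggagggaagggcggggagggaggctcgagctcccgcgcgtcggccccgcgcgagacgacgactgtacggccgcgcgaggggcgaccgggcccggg
Bmpr2, chr1:59764029-59764328, plus strand: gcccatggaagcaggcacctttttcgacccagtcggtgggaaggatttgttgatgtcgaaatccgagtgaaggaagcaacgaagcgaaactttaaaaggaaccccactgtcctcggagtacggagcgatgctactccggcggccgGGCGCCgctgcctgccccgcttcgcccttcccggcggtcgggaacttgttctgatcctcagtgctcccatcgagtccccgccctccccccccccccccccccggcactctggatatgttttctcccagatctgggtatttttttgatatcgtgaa
Grem1, chr2:113758599-113758898, minus strand: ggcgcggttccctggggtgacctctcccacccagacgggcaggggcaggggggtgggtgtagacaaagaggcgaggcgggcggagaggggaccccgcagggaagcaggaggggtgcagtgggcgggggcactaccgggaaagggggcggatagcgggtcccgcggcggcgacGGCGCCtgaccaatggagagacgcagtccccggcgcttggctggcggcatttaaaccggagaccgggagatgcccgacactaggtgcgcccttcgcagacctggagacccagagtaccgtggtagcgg
Id2, chr12:25096043-25096342, minus strand: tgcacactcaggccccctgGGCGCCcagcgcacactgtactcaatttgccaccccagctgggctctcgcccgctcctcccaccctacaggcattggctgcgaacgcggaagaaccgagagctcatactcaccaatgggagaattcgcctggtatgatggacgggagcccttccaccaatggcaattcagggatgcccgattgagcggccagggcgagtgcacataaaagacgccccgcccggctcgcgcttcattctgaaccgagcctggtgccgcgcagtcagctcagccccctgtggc
The match begins 198, 105, 78 and 231 bases before the RefSeq start in Bmpr1a, Bmpr2, Grem1 and Id2. For Bmpr1a, Bmpr2 and Id2 the whole window lies inside the gene interval printed here, which comes from GENCODE and starts farther upstream. Of 32851 windows of the same length over all genes, 11.9% hold the motif. The windows of Bmp4, Inhba and Id3 do not hold these 6 letters. Genes with a match thus include 1 called higher (Bmpr1a) and 1 with its mean lower in GFP+ cells (Grem1), and a match does not show that a SMAD binds.

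Bmpr1a (ENSMUSG00000021796, minus strand of chromosome 14, 34410734 to 34503341) had normalised counts of 773, 1079, 703 and 752 in GFP- and 1539, 1188, 1439.7 and 1301 in GFP+ replicates 1 to 4. The groups did not overlap, and GFP- replicate 2 and GFP+ replicate 2 were the closest pair. Bmpr1a rose from 827 ± 171 to 1367 ± 154 normalised counts (mean ± SD over 4 libraries), a log2 difference of 0.71 (SE 0.20) with an adjusted p of 0.00579 in DESeq2. The edgeR adjusted p was 0.0166 (0.0366 after the filter on low counts) and the call held in each of the 8 fits that left out 1 library, but limma voom gave an adjusted p of 0.0568. Its difference was close to the median of 0.75 over the 10 stromal markers.

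Bmpr2 (ENSMUSG00000067336, plus strand of chromosome 1, 59763400 to 59879014) was at 2343, 1880.5, 2329 and 1989.7 normalised counts in GFP- and 3729.9, 2297, 2882 and 2954 in GFP+ replicates 1 to 4. Of the GFP+ libraries 3 lay above all GFP- libraries, while replicate 2 fell inside the GFP- range. Bmpr2 had a log2 difference of 0.48 (SE 0.19) with an adjusted p of 0.0902 in DESeq2, and the gene was called without GFP+ replicate 2 (adjusted p 0.0256), with TMM factors (adjusted p 0.0482) and under a replicate block (adjusted p 0.0271). A non-coding gene annotated on the same strand (Gm38125) overlaps Bmpr2, so reads shared by both could have been left out of its count.

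The ID genes, used widely as readouts of BMP receptor activity, had positive log2 differences and none was called. Id1 (ENSMUSG00000042745, plus strand of chromosome 2, 152736251 to 152737410) was read 20, 30, 1 and 32 times in GFP- and 1, 104, 85 and 153 times in GFP+ replicates 1 to 4. Its normalised counts were 27.1, 21.5, 10.99 and 16.8 in GFP- and 1.39, 43.5, 65.3 and 51.3 in GFP+ replicates. GFP+ replicates 2 to 4 lay above every GFP- library, and GFP+ replicate 1 lay below every GFP- library. The single read of that replicate allows 0.0352 to 7.74 normalised counts (exact Poisson 95% interval, counting error only), which does not reach the other GFP+ values. By the same interval, the single read of GFP- replicate 3 allows 0.278 to 61.2, which covers the values of GFP+ replicates 1, 2 and 4. In Id1 the log2 difference was 1.02 (SE 0.86) with an adjusted p of 0.553 in DESeq2, and without GFP+ replicate 1 it was 1.39 with an adjusted p in DESeq2 of 0.105.

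Id2 (ENSMUSG00000020644, minus strand of chromosome 12, 25093799 to 25097140), which is also used by lymphoid cells, had the highest level per length of the ID genes. It had normalised counts of 649.8, 702, 516 and 950.2 in GFP- and 1076, 722, 724 and 818 in GFP+ replicates 1 to 4. GFP- replicate 4 was higher than 3 of the GFP+ libraries, and the groups overlapped over most of their range. The log2 difference of Id2 was 0.22 (SE 0.24) with a 95% interval of -0.24 to 0.68 and an adjusted p of 0.668 in DESeq2, and it was 0.085 without GFP+ replicate 1, 0.11 without GFP- replicate 3 and 0.40 without GFP- replicate 4.

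Id3 (ENSMUSG00000007872, plus strand of chromosome 4, 136143497 to 136145755) stood at 343, 373, 286 and 408 normalised counts in GFP- and 567, 540.1, 517 and 426 in GFP+ replicates 1 to 4. The GFP+ libraries all lay above the GFP- libraries, by a narrow margin between GFP+ replicate 4 and GFP- replicate 4. The log2 difference of Id3 was 0.50 (SE 0.20) with an adjusted p of 0.0915 in DESeq2, 0.0896 to 0.239 over the fits that left out 1 library, and so the difference did not pass the test although the groups were separate.

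Transcript levels were compared between genes as normalised counts per kilobase of annotated exon. In GFP- cells Id2 had the highest level (289 ± 74.4 per kilobase, SD, n = 4), followed by Chrdl1 (231 ± 29.4) and Id3 (197 ± 29.0). In GFP+ cells Chrdl1 came first (470.3 ± 86.2), followed by Id2 (342 ± 68.5) and Id3 (286 ± 34.1). Bmpr1a and Bmpr2 took the middle of both orders, at 130.2 ± 26.9 and 119 ± 13.1 in GFP- and 215 ± 24.2 and 165 ± 32.7 in GFP+ cells. The ligand genes were lower, with Bmp2 at 90.4 ± 34.6 in GFP- and 55.6 ± 27.4 in GFP+ cells and Bmp4 at 18.6 ± 11.5 and 9.23 ± 5.35. Grem1 was last in both groups, at 6.39 ± 4.32 and 1.00 ± 1.17 per kilobase. Neighbours in the GFP- order all overlapped between libraries. In the GFP+ order the libraries of Bmpr2 and Bmp2, of Inhba and Bmp4, and of Bmp4 and Grem1 were separate and the other neighbours overlapped.

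**Figure D2:**
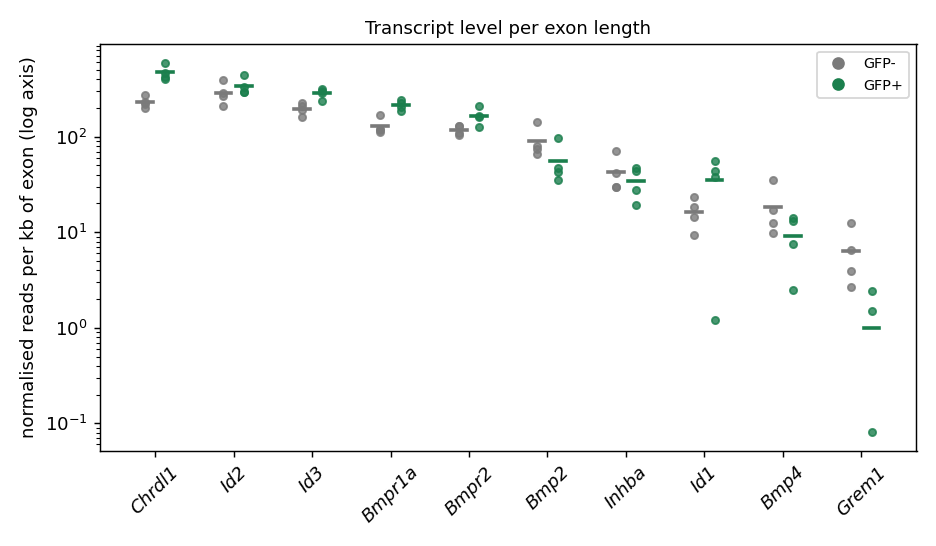
Normalised reads per kilobase of annotated exon (log axis) for the 10 genes, ordered by their mean, with 1 point per library and a bar at the mean of GFP- (grey) and GFP+ (green) libraries. The Grem1 value of GFP+ replicate 1 is 0 and is not drawn, and Chrdl1 is the highest gene in GFP+ cells at 470.3.

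The spread between replicates was smallest in GFP- libraries for Bmpr2 and largest for Grem1. The coefficient of variation was 12.7% in GFP- and 18.3% in GFP+ libraries for Chrdl1, 11.04% and 19.8% for Bmpr2 and 14.7% and 11.9% for Id3. It was 67.6% and 117% for Grem1, 61.9% and 58.0% for Bmp4, and 35.9% and 68.1% for Id1. Bmp2 and Inhba, with more reads than these, still varied by 38.3% to 49.4% within a group.

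The other genes of the pathway were then read from the same fit, to place the 10 genes among their partners. Like the 10 genes, these were listed with earlier results of these data known. Of 87 such genes in the table, 63 received an adjusted p, of which 10 were called higher and 5 lower (4.66% and 4.76% of all genes tested), with a median log2 difference of 0.29. The genes called higher included antagonists and modulators of both BMPs and activins, and the genes called lower included 3 ligand genes. With GFP+ replicate 3 left out 6 were called higher, as without GFP- replicate 2 or GFP+ replicate 4, and 3 were called lower without GFP- replicate 4. With edgeR 7 were called higher and 4 lower, and after its filter on low counts 5 and 3. The calls of Rgma, Twsg1, Smad5 and Smad6 were each lost in edgeR with and without the filter, that of Atoh8 in edgeR after the filter, and all 5 in limma voom and in at least 5 of the 8 fits that left out 1 library.

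Of 15 other secreted antagonists and modulators tested, 5 were called higher and 0 lower by DESeq2 (again against 4.66% and 4.76% of all genes tested, the shares to set beside each count of calls that follows). At an unadjusted p under 0.05 in DESeq2, 0 were lower (against 10.8% of all genes tested), and edgeR and limma voom called 0 lower. Bmper, whose product binds BMPs outside endothelial and other cells, had normalised counts of 157, 235, 736 and 317 in GFP- and 1215, 1277, 1432 and 1949 in GFP+ replicates 1 to 4. The lowest GFP+ library lay well above GFP- replicate 3, the highest of its group, and the log2 difference of Bmper was 2.09 (SE 0.39) with an adjusted p of 7.56e-06 in DESeq2. Fst, the gene of the activin antagonist follistatin, rose from 1235 ± 256 to 2617 ± 802 normalised counts (mean ± SD over 4 libraries), a log2 difference of 1.08 (SE 0.25) with an adjusted p of 0.000611 in DESeq2. Fstl1, a follistatin-like gene in the top 1% of genes tested by mean count, rose from 23100.4 ± 4717 to 35999 ± 4343 normalised counts (mean ± SD over 4 libraries), with a log2 difference of 0.64 (SE 0.19) and an adjusted p of 0.0128 in DESeq2, which was 0.0699 without GFP+ replicate 3. The call of Fstl1 was kept in edgeR (adjusted p 0.00137) but lost after edgeR's filter on low counts (adjusted p 0.0531) and in limma voom (adjusted p 0.312). Twsg1, which encodes a chordin partner, had a log2 difference of 0.55 (SE 0.19) with an adjusted p of 0.035 in DESeq2, and kept its call only without GFP+ replicate 1 among the fits that left out 1 library. Bmp1, a protease gene that is no BMP ligand despite its name, had a log2 difference of 0.20 with an adjusted p of 0.728 in DESeq2.

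Of 11 other ligand genes tested, 1 was called higher and 3 lower. Gdf10, also named BMP3B, was at 329.7, 333, 286 and 168 normalised counts in GFP- and 899.8, 846, 829 and 907 in GFP+ replicates 1 to 4. The GFP+ libraries were tightly grouped and all above the GFP- libraries, with a log2 difference of 1.65 (SE 0.25) and an adjusted p of 1.08e-08 in DESeq2. Bmp7 fell from 167 ± 52.6 to 41.9 ± 23.3 normalised counts (mean ± SD over 4 libraries), a log2 difference of -1.95 (SE 0.47) with an adjusted p of 0.000953 in DESeq2, a call that limma voom did not make (adjusted p 0.0555). Gdf9, known as an oocyte factor, fell from 261 ± 131 to 44.0 ± 26.2 normalised counts (mean ± SD over 4 libraries), with an adjusted p of 1.11e-05 in DESeq2. Inhbb, the gene of the βB subunit of activins, fell from 187 ± 90.4 to 57.1 ± 16.8 normalised counts (mean ± SD over 4 libraries), with an adjusted p of 0.00731 in DESeq2. For Inhbb GFP- replicate 1 (58.3) lay within the GFP+ range and the call, kept in edgeR (adjusted p 0.0321), was lost after edgeR's filter on low counts, in limma voom and without GFP- replicate 4 (adjusted p 0.0735). Bmp7, Gdf9 and Inhbb were highest in GFP- libraries, in which the summed melanocyte markers were also highest, and the part of melanocyte transcripts in these differences was not tested. Bmp8a, which had the highest mean count of these ligand genes after Gdf10, had a log2 difference of 0.47 with an adjusted p of 0.506 in DESeq2.

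**Figure D3:**
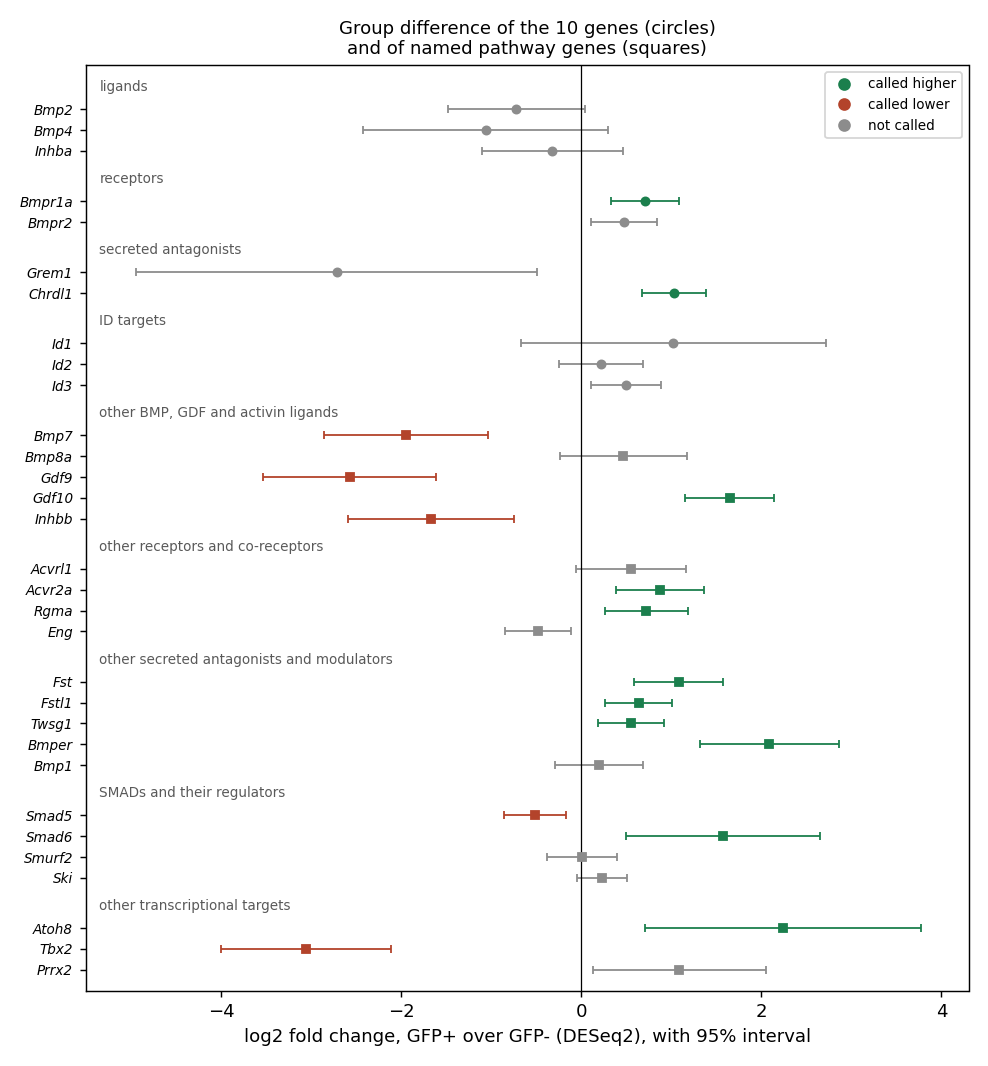
DESeq2 log2 difference of GFP+ over GFP- cells with its 95% interval for the 10 genes (circles) and for named genes of the rest of the pathway (squares), grouped by role. Green marks genes called higher, red genes called lower and grey genes not called, and the widest interval among the 10 genes is that of Grem1, -4.94 to -0.49.

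Among 11 other receptors and co-receptors tested, 2 were called higher and 0 lower by DESeq2. At an unadjusted p under 0.05 in DESeq2, 2 were lower (against 10.8% of all genes tested), while edgeR called 0 lower and limma voom 1 (Eng). Acvr2a, a type II receptor gene shared by activins and BMPs, rose from 346 ± 91.1 to 656 ± 138 normalised counts (mean ± SD over 4 libraries), a log2 difference of 0.88 (SE 0.25) with an adjusted p of 0.00816 in DESeq2, 0.0631 without GFP+ replicate 4 and 0.133 in limma voom. Rgma, the gene of a BMP co-receptor, had a log2 difference of 0.72 (SE 0.24) with an adjusted p of 0.0276 in DESeq2. Eng, which encodes endoglin and is used by endothelial and some stromal cells, had 1190.0 ± 183 in GFP- and 862 ± 128 in GFP+ libraries (mean ± SD over 4) and an adjusted p of 0.0862 in DESeq2, 0.0385 without GFP- replicate 3 and 0.038 without GFP+ replicate 1. Acvrl1 had a log2 difference of 0.56 with an adjusted p of 0.303 in DESeq2, and of 0.15 without GFP+ replicate 1, which stood above its group.

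Inside the cell, 14 SMAD genes and regulators were tested, with 1 called higher and 1 lower. Smad6, an inhibitory SMAD gene that BMP signalling itself induces, had normalised counts of 13.6, 25.8, 87.9 and 73.0 in GFP- and 187, 119.7, 101 and 139.9 in GFP+ replicates 1 to 4. All GFP+ libraries exceeded all GFP- libraries, but the highest GFP- value, that of replicate 3, rests on 8 reads. The log2 difference of Smad6 was 1.58 (SE 0.55) with an adjusted p of 0.0461 in DESeq2, and 0.0137 to 0.185 when single libraries were left out. Smad5, which carries the BMP signal, fell from 1066 ± 83.5 to 744 ± 111 normalised counts (mean ± SD over 4 libraries), a log2 difference of -0.51 (SE 0.17) with an adjusted p of 0.0396 in DESeq2, and 0.0463 to 0.165 when single libraries were left out. Ski and Smurf2, which had the highest mean counts of these genes, had log2 differences of 0.23 and 0.0078 with DESeq2 adjusted p of 0.362 and 0.99.

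Of 12 other target genes tested, Atoh8 was called higher and Tbx2 lower. Atoh8, a helix-loop-helix gene induced by BMPs, was at 0, 23.6, 65.9 and 56.2 in GFP- and 256, 97.1, 149.8 and 143 in GFP+ replicates 1 to 4. The 0 reads of GFP- replicate 1 allow up to 4.07 normalised counts. Its groups were separate and its log2 difference was 2.24 (SE 0.78) with an adjusted p of 0.0453 in DESeq2, with the call lost without GFP- replicate 2 or any 1 of the GFP+ libraries (0.00647 to 0.148 over all 8 fits). Tbx2, a T-box gene also used in melanocytes, fell from 587 ± 224 to 70.3 ± 43.7 normalised counts (mean ± SD over 4 libraries), a log2 difference of -3.06 (SE 0.48) with an adjusted p of 3.05e-08 in DESeq2, and here too the part of melanocyte transcripts was not tested. Prrx2, a fibroblast homeobox gene, had a log2 difference of 1.09 with an adjusted p of 0.162 in DESeq2, and 0.0112 without GFP- replicate 3.

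**Figure D4:**
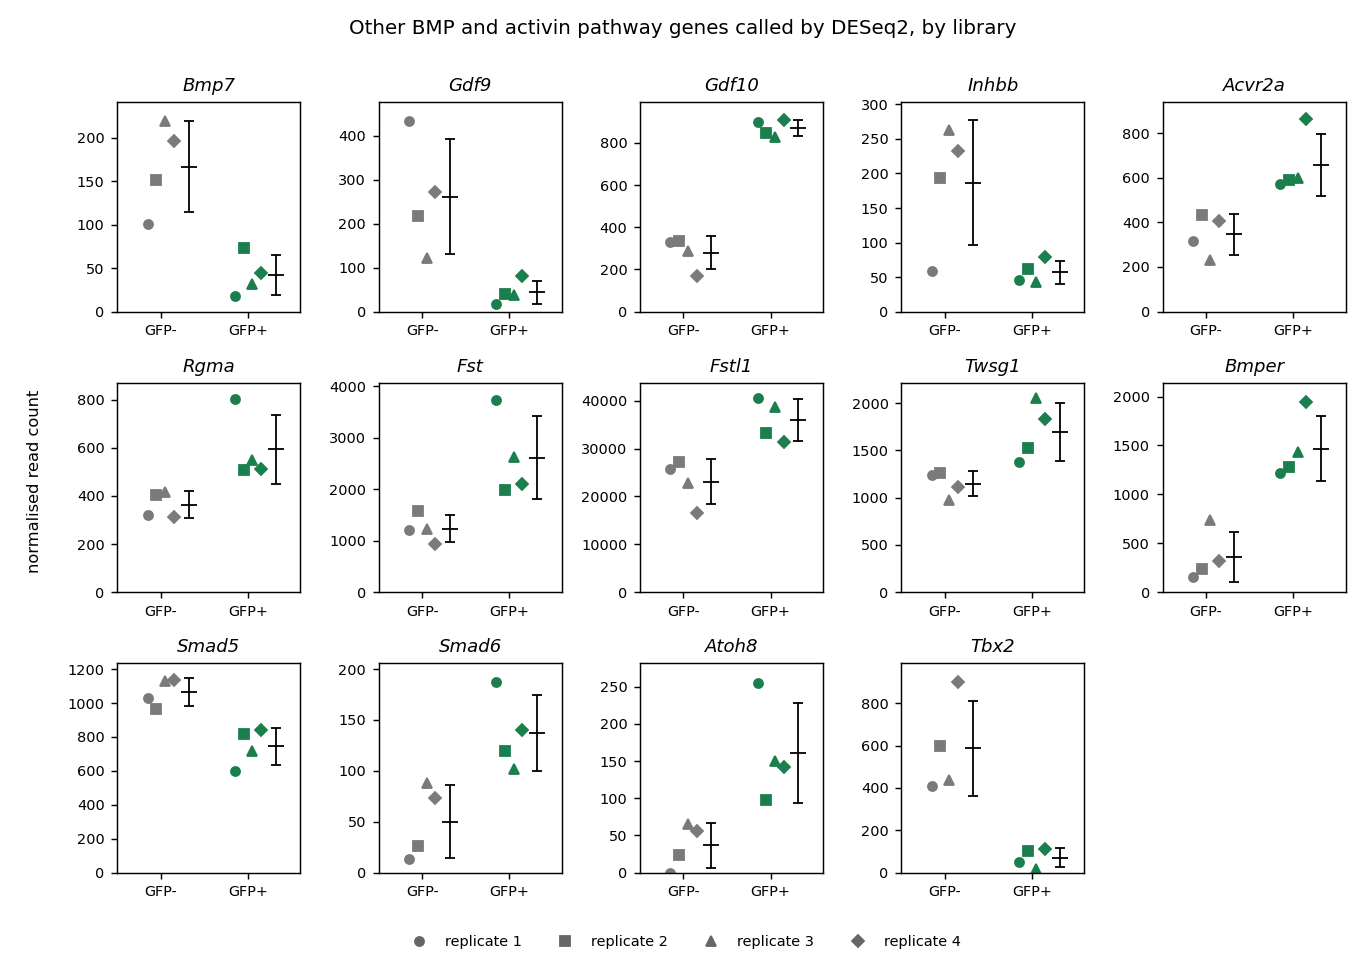
Normalised read count (linear axis from 0) of 14 other pathway genes called by DESeq2 in every GFP- (grey) and GFP+ (green) library, with the marker shape giving the replicate number and the black bar the mean with its SD (n = 4). Gdf10, Bmper and Fst lie higher in every GFP+ library, Bmp7, Gdf9 and Tbx2 lower, and Inhbb overlaps between groups.

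Of the 3 E protein genes, whose products the ID proteins bind, 1 was called higher. Tcf4 rose from 1869 ± 209 to 3077 ± 374 normalised counts (mean ± SD over 4 libraries), a log2 difference of 0.72 (SE 0.16) with an adjusted p of 0.000231 in DESeq2. Tcf12 had 2424 ± 183 in GFP- and 1871 ± 229 in GFP+ libraries (mean ± SD over 4), with separate groups, a log2 difference of -0.38 (SE 0.15) and an adjusted p of 0.0993 in DESeq2, and limma voom gave 0.0483. Tcf3 had a log2 difference of -0.26 with an adjusted p of 0.447 in DESeq2.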

How the data were processed

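RNA-seq libraries of GFP+ and GFP- cells (4 each) were prepared by the authors with a Pico Input stranded kit. Per the study's methods and the submitters' processing notes, the authors trimmed reads with cutadapt 3.4, mapped them to GRCm38 with STAR 2.7.3a and counted them per Ensembl gene with featureCounts 2.0.1, using the strand. They deposited raw read counts per gene and library, from which all values here were computed, and a normalised score (count over DESeq2 size factor, rounded), used only to check that size factors matched. The deposited fold changes of the authors were read only to find which model they came from, and no result uses them or the deposited p-values. Per-sample columns left unused: 0.

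DESeq2 1.42.0 in R 4.3.3 was run on the 29043 genes that had a read (group as the only term, two-sided Wald test, independent filtering, Benjamini-Hochberg adjustment over 15283 genes). The study's methods name DESeq2 and state no replicate term, but for 14172 of 14172 genes with a mean count over 10 the deposited fold changes lay within 0.001 (log2) of a DESeq2 fit with the replicate number as a term, so the values and calls here come from another model than the study's. Intervals of 95% are the estimate ± 1.96 SE. Totals ran from 883144 to 31666734 reads, and counting intervals cover counting error only, since no molecular identifiers are described. Gene intervals and exon lengths came from GENCODE M21 (GRCm38), in which 99.66% of the identifiers were found, and promoters from RefSeq.

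The members and lists were chosen with earlier results of these data known. Named pathway genes are those called and the 2 most abundant of each sub-list, with the E protein genes and Adam12, and 1 called gene is counted but not reported here. Alternatives were edgeR 4.0.16, limma 3.58.1 voom, TMM factors, size factors taken over genes averaging 100 reads or more, a minimum mean of 10 reads, no independent or Cook's filter, a replicate block, a stricter threshold of 0.01 and each library left out. edgeR on the genes kept by filterByExpr (the filter on low counts named in the results) was added after seeing the data. DESeq2 and edgeR, but not limma voom, were also run on simulated counts with known differences, and the outcome is not given here. No replicates were closer than independent libraries (chi-square per degree of freedom 9.68 to 73).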

Additional observations from a re-analysis of the deposited data

Results flagged for a closer look

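In groups of 4 libraries, a library was singled out when its gap to the nearest other library, over the range of the group, passed Dixon's 95% critical value for 4 values. Chance singles out about 1 in 20 groups, and 4 of 72 groups of normalised counts were singled out, none of them in the 10 genes. GFP+ replicate 4 stood above its group for Acvr2a, at 863 against 572 to 599 (ratio 0.907). GFP+ replicate 1 stood above its group for Rgma, at 805 (ratio 0.857), and for Acvrl1, at 1612 against 623 to 739 (ratio 0.882). GFP- replicate 2 stood above its group for Tcf3, at 933 (ratio 0.845).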

How the results depend on the processing

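Over 17 alternatives each, Chrdl1 was always called higher and Bmp4, Inhba, Grem1, Id1, Id2 and Id3 were never called. Bmpr1a lost its call in limma voom, where 1 of the 10 genes was called higher. Bmpr2 gained a call in 3 alternatives, and Bmp2 in 1, without GFP+ replicate 1. Leaving out 1 library gave 2 to 3 of the 10 genes called higher and 0 to 1 lower, 6 to 12 other pathway genes higher and 3 to 5 lower, and 460 to 937 genes higher and 469 to 900 lower over the whole table (712 and 727 with all libraries). The 460 and the 469 were reached without GFP+ replicate 3 and GFP- replicate 4. Other pathway genes called higher (10 with all settings as reported) numbered 6 without independent filtering, 7 with edgeR, 5 with edgeR after filterByExpr, 4 in limma voom and 5 at an adjusted p under 0.01. Those called lower (5) numbered 4 with edgeR, 3 with edgeR after filterByExpr and 3 in limma voom. Over all genes, edgeR called 640 higher and 629 lower, edgeR after filterByExpr called 405 higher and 327 lower, limma voom 458 and 480, and an adjusted p under 0.01 left 419 and 425. The causes were not tested, apart from the stricter threshold. Among the 10 genes and the other named genes only, the directions of Inhba and Smurf2 turned, and neither gene was called. Inhba turned without GFP- replicate 2 (log2 fold change 0.064, the highest of -0.51 to 0.064 over left-out libraries). Smurf2 was at -0.012 with size factors from abundant genes and at -0.086 to 0.14 when single libraries were left out.

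Same-numbered libraries of the 2 groups did not all deviate together, with correlations over 14173 genes of 0.152, -0.146, -0.125 and 0.236 for replicates 1 to 4. These values cannot settle whether the numbers pair libraries, since GFP- replicate 3 was shallow and replicates 1 and 4 matched their own number. The main fit held no replicate term. With the replicate number as a block, 755 genes were called higher and 737 lower, and 3 of the 10 genes were called higher, the added one being Bmpr2 (DESeq2 adjusted p 0.0271). Of the other pathway genes, the block left 9 called higher and 7 lower. It lost Rgma (adjusted p 0.0638), Twsg1 (0.0787) and Smad5 (0.0506), and added Prrx2 (0.0183) and 3 lower genes, Bmp3, Gdf11 and Tob1, named after their values were seen. The deposited fold changes come from a fit with this block. Replicates 1 and 4 correlated best with their own number, and replicates 2 and 3 with each other's. GFP- replicate 3 held 1 or 2 reads of Bmp4, Grem1 and Id1, and without it none of these was called (adjusted p 0.285, 0.0917 and 0.592).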
